A study of Homo sapiens with 2 samples.

Results

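The 10 genes described here are the 9 protein arginine methyltransferases of the human genome and WDR77, the WD-repeat protein that acts with PRMT5. They were named by symbol and matched to Ensembl IDs among the 60683 genes of the deposited count table, and all 10 were found. They comprise 6 type I enzymes (PRMT1, PRMT2, PRMT3, CARM1, PRMT6 and PRMT8), 2 type II enzymes (PRMT5 and PRMT9), 1 type III enzyme (PRMT7) and the partner WDR77. RNA-seq was done on HEK293T cells, a human embryonic kidney line carrying the SV40 large T antigen, in which short hairpin RNAs stably lowered FKBP5. FKBP5 encodes an HSP90-binding immunophilin. The samples are 2 FKBP5 knockdown samples of 1 group, both of the same line, and the labels do not say whether they came from separate cultures, clones or hairpins. Control cells were not analysed here, so the values are levels in knockdown cells and differences between the 2 libraries, and no effect of the knockdown was tested.

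Arginine methyltransferases transfer methyl groups from S-adenosylmethionine to arginine side chains of histones and RNA-binding proteins. Type I enzymes make asymmetric dimethylarginine, type II enzymes make symmetric dimethylarginine, and type III activity stops at monomethylarginine. PRMT1 and PRMT5 are known as the main asymmetric and symmetric enzymes of most cells, and PRMT5 needs WDR77 for full activity.

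Sample 1 held 9997706 counts and sample 2 held 21284648, so counting error is smaller in sample 2. FKBP5 itself had 41 counts in sample 1 and 77 in sample 2, or 3.95 and 3.52 CPM, the authors' scaling of counts to library size. All 8 genes listed as typical of HEK293T were present, with means between 21.3 and 311 CPM. Of other cell types, blood cell, epithelial and fibroblast markers had 2 of 4, 2 of 4 and 1 of 4 genes at 1 CPM or more. Their highest means were 5.57, 7.71 and 59.7 CPM, the last of them (COL1A1) within the HEK293T range. The neuronal list had 5 of 6 genes at 1 CPM or more, with means of 0.259 to 12.9 CPM. Together the 10 genes made up 0.111% and 0.105% of the counts. As in any bulk sample, fewer cells expressing a gene and less RNA per cell cannot be told apart.

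PRMT1 was the most abundant of the enzymes, PRMT8 was near the limit of detection, and the others lay between. PRMT1 (ENSG00000126457, chr19:49675786-49689029, plus strand, GRCh38) was counted 4545 times in sample 1, with 8825 in sample 2. Its CPM was 438 (95% exact Poisson interval 425 to 451) in the smaller library and 404 (395 to 412) in the larger, which averaged 421 ± 24.2 CPM (SD, n = 2). Per kilobase of its principal transcript, the length-corrected measure used to compare genes, its level was 314 CPM per kb in sample 1 and 289.9 in sample 2. This exceeded the level of 99.4% of 19656 protein-coding genes, whose median was 3.21 CPM per kb. Intervals cover counting error only, and not the spread between samples. No molecular identifiers are stated for the reads.

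CARM1, a coactivator that methylates histone H3 and splicing factors, came next among the type I enzymes. CARM1 (ENSG00000142453, chr19:10871513-10923070, plus strand) had 2391 and 5077 counts, or 230.4 and 232 CPM. Its level per length was 69.2 and 69.8 CPM per kb, so the samples hardly differed. PRMT1 stood 4.54 times above CARM1 per length in sample 1 (95% exact interval 4.32 to 4.78) and 4.16 times in sample 2 (4.01 to 4.30). These intervals do not cover the choice of length: the ratio of the mean levels was 1.69 on merged exons, 3.13 on coding length and 3.19 with bases shared with other genes left out.

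PRMT2, a weakly active enzyme with an SH3 domain, and PRMT6, a nuclear enzyme whose principal transcript has 1 exon, were of intermediate level. PRMT2 (ENSG00000160310, chr21:46635167-46665124, plus strand) had 91.6 CPM in sample 1 against 99.0 CPM in sample 2, which were 31.8 and 34.4 CPM per kb. PRMT6 (ENSG00000198890, chr1:107056679-107067636, plus strand) had 66.5 CPM in sample 1 against 58.7 CPM in sample 2, which were 25.4 and 22.4 CPM per kb. The values of PRMT2 lay above those of PRMT6 in both samples. PRMT3, a cytosolic zinc finger enzyme whose known substrate is the ribosomal protein of RPS2, was lower. PRMT3 (ENSG00000185238, chr11:20387530-20509294, plus strand) had 347 and 695 counts, or 33.4 and 31.8 CPM, and 12.6 and 11.99 CPM per kb.

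PRMT8, a membrane-anchored relative of PRMT1 known mainly from brain, was counted 5 times in sample 1, with 13 in sample 2. Scaled, this was 0.482 CPM (0.156 to 1.12 by the same interval) against 0.595 CPM (0.317 to 1.02), where 3 counts correspond to 0.289 and 0.137 CPM. The level was 0.204 CPM per kb in sample 1 and 0.251 in sample 2, above that of 28.7% of protein-coding genes. PRMT8 (ENSG00000111218, chr12:3381349-3593973, plus strand) was therefore the only one of the 10 below a mean of 1 CPM, and it was left out of the test between libraries for that reason. The 6 neuronal markers summed to 29.9 CPM in sample 1 and 32.5 CPM in sample 2, with none at 0 in both, and SYT1 was the highest at 12.9 ± 1.55 CPM (SD, n = 2). The part of neuron-like expression in the PRMT8 counts was not tested. Not 1 of the 50-base stretches of the PRMT8 principal transcript occurred in another gene's transcripts, although the encoded protein was 79.3% identical to that of PRMT1 over 353 aligned residues. The next closest pair was PRMT1 and PRMT3, at 49.3% of aligned residues.

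The type II enzymes were low next to PRMT1. PRMT5 (ENSG00000100462, chr14:22920511-22929585, minus strand) was counted 471 times in sample 1, with 869 in sample 2. Scaled, this was 45.4 CPM (41.4 to 49.7) against 39.8 CPM (37.2 to 42.5), or 17.9 and 15.7 CPM per kb. Per length, PRMT1 was 17.5 times PRMT5 in sample 1 (95% exact interval 15.9 to 19.3) and 18.5 times in sample 2 (17.2 to 19.8). On merged exons the ratio of the mean levels was 7.15, on coding length 17.8, and with bases shared with other genes left out 11.5. PRMT9, which methylates the splicing factor SF3B2, was lower still. PRMT9 (ENSG00000164169, chr4:147637785-147684230, minus strand) had 14.6 CPM in sample 1 against 18.5 CPM in sample 2, or 4.13 and 5.24 CPM per kb, above 55.2% of protein-coding genes. PRMT5 was 4.35 times PRMT9 per length in sample 1 (3.61 to 5.26) and 2.998 times in sample 2 (2.66 to 3.38).

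PRMT7, the monomethylating type III enzyme, and WDR77 had levels close to each other. PRMT7 (ENSG00000132600, chr16:68310974-68358563, plus strand) had 87.5 CPM in sample 1 against 85.8 CPM in sample 2, which were 20.6 and 20.3 CPM per kb. WDR77 (ENSG00000116455, chr1:111439890-111449376, minus strand) had 593 and 1204 counts, or 57.2 and 55.1 CPM, and 22.2 and 21.4 CPM per kb. WDR77 exceeded PRMT7 in both samples, but the exact interval of their ratio included equality in each, from 0.967 to 1.19 in sample 1 and from 0.981 to 1.14 in sample 2.

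**Figure D1:**
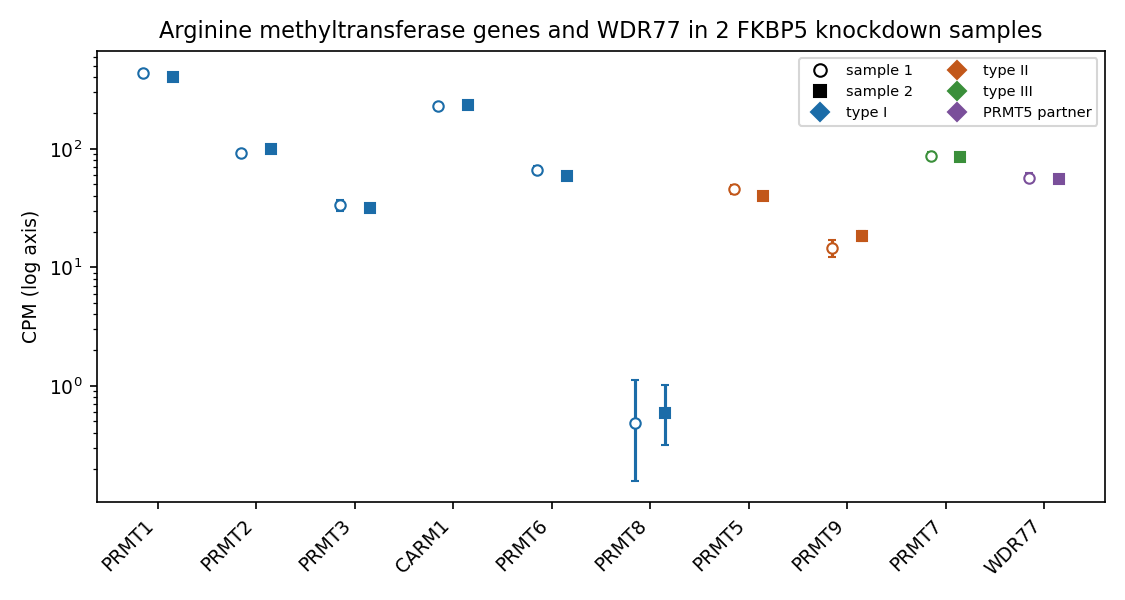
CPM of the 10 genes on a log axis, with sample 1 as open circles, sample 2 as filled squares and bars for the 95% exact Poisson interval of each value; colours mark the enzyme type. The samples lie close together for each gene, from PRMT1 at 438 and 404 CPM down to PRMT8 at 0.482 and 0.595 CPM.

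Ordered by level per length, the genes ran PRMT1, CARM1, PRMT2, PRMT6, WDR77, PRMT7, PRMT5, PRMT3, PRMT9 and PRMT8. Neighbours were said to differ when both samples of the higher gene lay above both of the lower and the exact counting interval of their ratio excluded equality in each sample. By that rule 7 of the 9 neighbouring pairs differed. The exceptions were PRMT6 with WDR77, at a ratio of 1.15 in sample 1 (1.03 to 1.28) and 1.05 in sample 2 (0.969 to 1.14), and WDR77 with PRMT7. The ends of the order were the same for the 5 lengths tried: PRMT1 and CARM1 led, and PRMT3, PRMT9 and PRMT8 closed it. PRMT2, PRMT6, WDR77, PRMT7 and PRMT5 changed places among themselves under 3 of the 4 other lengths. The PRMT1 value itself depended on the length chosen, with a mean of 302 CPM per kb on the principal transcript of 1393 bases and 87.8 CPM per kb on its merged exons of 4796 bases.

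**Figure D2:**
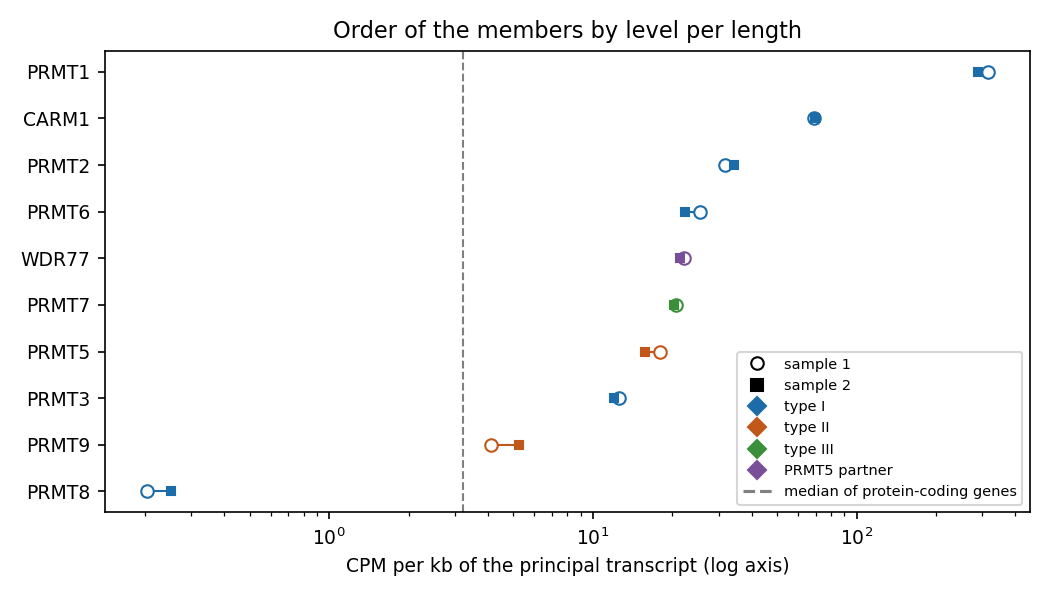
CPM per kilobase of the principal transcript on a log axis for each gene, with sample 1 as open circles and sample 2 as filled squares, and a dashed line at the median of 19656 protein-coding genes (3.21 CPM per kb). All genes but PRMT8 lie to the right of the line.

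Type I enzymes accounted for most of the summed enzyme level. Over the 9 enzymes the levels summed to 496 CPM per kb in sample 1 and 469.9 in sample 2. Type I held 91.4% of this sum in sample 1 and 91.2% in sample 2, type II held 4.44% and 4.46%, and type III, which is PRMT7 alone, held 4.16% and 4.31%. PRMT1 by itself held 63.3% and 61.7%, CARM1 13.9% and 14.8%, and PRMT5 3.61% and 3.34%. Transcript shares of this kind say nothing of protein amounts or of enzyme activity. Type II was close to type III on the principal transcript, at means of 4.45 ± 0.0100% for type II and 4.24 ± 0.106% for type III (SD, n = 2). Their order turned with coding length, at 3.87% for type II and 5.61% for type III, and type II was at 8.30% on merged exons, where type III was at 4.64%.

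**Figure D3:**
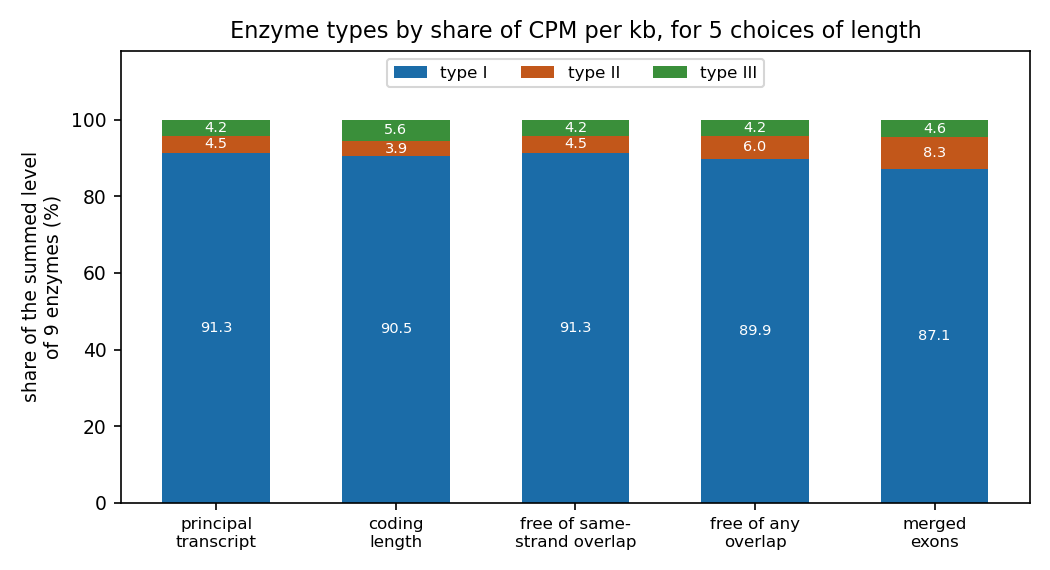
Share of the summed CPM per kilobase of 9 enzymes taken by type I, type II and type III (mean of both samples, in percent), for 5 ways of setting each gene's length. Type I holds between 87.1% and 91.3% in each bar.

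Next to its partners, PRMT5 was the lowest of the complex by CPM per kb of principal transcript. The PRMT5 level was 0.808 times that of WDR77 in sample 1 (95% exact interval 0.715 to 0.914) and 0.735 times in sample 2 (0.672 to 0.802), a mean of 0.771 ± 0.0522 (SD, n = 2). Both intervals lay below equality, and the ratio did not differ between the libraries by a 2-sided Fisher's exact test of the counts (p = 0.209). The adaptors of PRMT5 were measured beside it. CLNS1A, which presents Sm proteins to the complex, had 20.3 and 20.8 CPM per kb, and RIOK1, which brings other substrates, had 21.7 and 19.4. COPRS, a histone-binding adaptor, had 30.5 and 27.4 CPM per kb. Each of these 3 lay above PRMT5 in both samples, whose values were 17.9 and 15.7.

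Overlapping genes limit these values for part of the family. The directional library marks strand, but no source used here says whether the counting used it. WDR77 shares 673 bases of its principal transcript with a same-strand gene that GENCODE names only by ID (ENSG00000243960, 7 and 15 counts), and how reads there were assigned is not known. On the other strand, 911 bases of PRMT5 overlap other genes' exons, chiefly PRMT5-AS1, which had 6 and 4 counts. With those bases left out of its length and its counts kept whole, PRMT5 had a mean of 26.3 CPM per kb. That is above the principal-transcript values of CLNS1A, RIOK1 and WDR77, but it is too high if any reads in those bases were counted. CARM1 overlaps YIPF2 on the other strand over 886 bases, and YIPF2 had 63.6 and 63.3 CPM. ADM5 shares 366 bases of the merged exons of PRMT1 on the same strand and had 39 and 146 counts. ATP5PB, a subunit of mitochondrial ATP synthase, overlaps 350 bases of the merged exons of WDR77 on the other strand, and had 187 and 171 CPM. Of the 50-base stretches of each principal transcript, the share absent from all other genes' transcripts, on either strand, was 64.5% for WDR77, 72.04% for PRMT5 and 74.2% for CARM1, and at least 95.7% for the other 7 genes. With bases under same-strand exons left out of the length, WDR77 had a mean of 29.5 CPM per kb and the PRMT5 ratio to it was 0.570. Counts were kept whole here too, so the WDR77 value is too high if reads in those bases were counted for it. The PRMT5 to WDR77 ratio stayed below 1 for each of the 5 lengths, from 0.407 with coding length to 0.771. Each length was applied to both genes, and shortening PRMT5 alone was not among them.

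Some members sit beside a gene that starts close by on the opposite strand. PRMT5-DT starts 24 bases from PRMT5 and had 11 counts in sample 1 against 54 in sample 2, or 1.06 and 2.47 CPM. SLC7A6OS starts 28 bases from PRMT7 and had 9.64 and 10.4 CPM. ATP5PB starts 512 bases from WDR77. Processed copies of PRMT1 and PRMT5, PRMT1P1 and PRMT5P1, had no count in either sample, and CARM1P1 had 2 counts and 0. A count of 0 allows up to 0.289 CPM in the first library, or 0.137 CPM in the second.

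The start regions of the highest gene, of the PRMT5 pair and of the lowest gene are given to set the sequence beside the level. Each is 300 bases from RefSeq (GRCh38.p14), 250 before to 50 after the annotated start, read 5′ to 3′ on the gene's strand. Capitals mark GGGCGG or CCGCCC, the GC box on either strand, and CCAAT or ATTGG, the CCAAT box on either strand. RefSeq gives PRMT8 an upstream start and a downstream start.
PRMT1, chr19:49677021-49677320, plus strand: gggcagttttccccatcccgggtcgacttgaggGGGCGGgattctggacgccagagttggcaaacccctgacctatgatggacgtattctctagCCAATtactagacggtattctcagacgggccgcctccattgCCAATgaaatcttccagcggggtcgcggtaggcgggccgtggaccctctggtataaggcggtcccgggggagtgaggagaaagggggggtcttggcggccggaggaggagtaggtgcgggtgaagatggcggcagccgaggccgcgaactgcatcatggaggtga
PRMT5, chr14:22929327-22929626, minus strand: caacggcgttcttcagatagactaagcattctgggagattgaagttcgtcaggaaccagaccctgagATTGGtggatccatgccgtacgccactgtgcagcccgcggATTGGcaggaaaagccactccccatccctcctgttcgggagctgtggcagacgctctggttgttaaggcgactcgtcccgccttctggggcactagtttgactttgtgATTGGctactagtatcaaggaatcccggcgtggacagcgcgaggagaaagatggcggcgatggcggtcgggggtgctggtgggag
WDR77, chr1:111449207-111449506, minus strand: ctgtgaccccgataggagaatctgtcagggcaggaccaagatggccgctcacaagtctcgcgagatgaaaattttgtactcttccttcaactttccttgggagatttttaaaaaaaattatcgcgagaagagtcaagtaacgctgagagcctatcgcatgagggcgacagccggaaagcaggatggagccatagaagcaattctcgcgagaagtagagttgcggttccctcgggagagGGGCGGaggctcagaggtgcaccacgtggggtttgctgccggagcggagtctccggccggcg
PRMT8 upstream start, chr12:3381099-3381398, plus strand: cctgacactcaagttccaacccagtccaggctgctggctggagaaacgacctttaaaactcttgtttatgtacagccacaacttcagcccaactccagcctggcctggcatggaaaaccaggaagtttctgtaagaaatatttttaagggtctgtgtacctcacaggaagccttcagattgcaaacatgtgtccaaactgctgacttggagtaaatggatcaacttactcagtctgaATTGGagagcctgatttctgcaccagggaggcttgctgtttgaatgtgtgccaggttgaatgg
PRMT8 downstream start, chr12:3490953-3491252, plus strand: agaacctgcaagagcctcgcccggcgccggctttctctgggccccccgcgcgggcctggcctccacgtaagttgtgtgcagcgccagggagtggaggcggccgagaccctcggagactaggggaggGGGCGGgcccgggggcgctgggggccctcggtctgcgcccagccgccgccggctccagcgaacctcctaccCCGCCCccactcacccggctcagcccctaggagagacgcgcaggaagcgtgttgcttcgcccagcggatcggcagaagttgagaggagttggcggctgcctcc

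The members' start regions were mostly rich in CpG dinucleotides, and the upstream PRMT8 start was not. It held 1 CpG in 300 bases at a GC content of 47.0%, and 3.96% of RefSeq start regions held fewer CpGs. The downstream PRMT8 start, from which its principal transcript begins, held 30 CpGs at 73.0% GC. PRMT1 held 22 CpGs, PRMT5 20 and WDR77 21, against a median of 14 over 35097 start regions. A CpG-rich start region was thus present both at the highest and at the lowest member. The GC box occurred in 10 of the 13 start regions of the family, and in 44.9% of all start regions, a share not matched for GC content. CARM1, PRMT7 and PRMT8 have more than 1 start region each, and those of PRMT7 overlap and hold the same GC boxes. By gene, only PRMT5 and PRMT6 had no GC box. The CCAAT box occurred in 3 of 13, those of PRMT1, PRMT5 and the upstream PRMT8 start, and in 34.6% of all. A TATAAA box on either strand was found in none of the 13, and in 11.5% of all. These are matches of letters in a window, and binding was not measured.

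The next question was how far the enzymes differed between the 2 libraries. Of the 15530 genes averaging 1 CPM or more, 8.97% (1393 genes) passed a 2-sided exact binomial test of counts between the libraries at an adjusted p under 0.05, with Benjamini-Hochberg adjustment over those genes, 4.41% higher and 4.56% lower in sample 2. That near-even split depends on the scaling: 685 were higher and 708 lower with the deposited scaling, 626 and 858 with TMM factors, 613 and 870 with DESeq2 size factors, and 589 and 908 with column totals. The test compares 2 libraries under counting error alone, and not conditions. Of the 9 members tested, 1 passed it, which is close to that background. PRMT1 was 0.922 times as high in sample 2 as in sample 1 (95% exact interval 0.889 to 0.956), a difference of -0.12 in log2(CPM + 1), with an adjusted p of 0.000415 by the exact binomial test. Abundant genes pass more often, since counting error is small there: 26.5% of the 2282 genes at 100 CPM or more did so. PRMT1, at a mean of 421 CPM, lay above 98.6% of the tested genes, so that share is not matched to its level. By edgeR's exact test with the common dispersion (a coefficient of variation of 5.60%), 13 of 15530 genes passed (0.0837%) and PRMT1 did not (adjusted p = 1). That spread was estimated from the same 2 libraries that the test compares, so it holds their difference and a typical difference cannot pass.

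The remaining members did not pass the binomial test. PRMT9 had the largest difference among those tested, at 1.27 times in sample 2 (95% exact interval 1.05 to 1.54, adjusted p = 0.0978 by the exact binomial test). PRMT6 was at 0.883 times (0.804 to 0.970, adjusted p = 0.0775) and PRMT5 at 0.876 times (0.782 to 0.982, adjusted p = 0.141), by the same exact test. PRMT2 was at 1.08 times, with an interval of 1.002 to 1.17. At an unadjusted p under 0.05 by the binomial test, 5 of the 9 passed (PRMT1, PRMT2, PRMT6, PRMT5 and PRMT9), beside 21.7% of all genes tested. Of the 8033 genes between 10 and 100 CPM, 8.33% passed at the adjusted threshold, and of the 7 members in that range 0 did; edgeR's exact test had 0 of the 9 at an unadjusted p under 0.05, beside 5.67% of all genes. For CARM1, PRMT7, WDR77 and PRMT3 the intervals included equality, and the ratio lay between 0.951 for PRMT3 and 1.01 for CARM1. Their intervals bounded a difference between these libraries at 0.960 to 1.06 for CARM1, 0.906 to 1.06 for PRMT7, 0.873 to 1.07 for WDR77 and 0.835 to 1.08 for PRMT3. For PRMT8 the counts allowed anything from 0.413 to 4.42 times. In all 3 members were higher and 6 lower in sample 2 among the 9 tested, with a median log2 difference of -0.05, beside 0.01 for all genes tested.

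**Figure D4:**
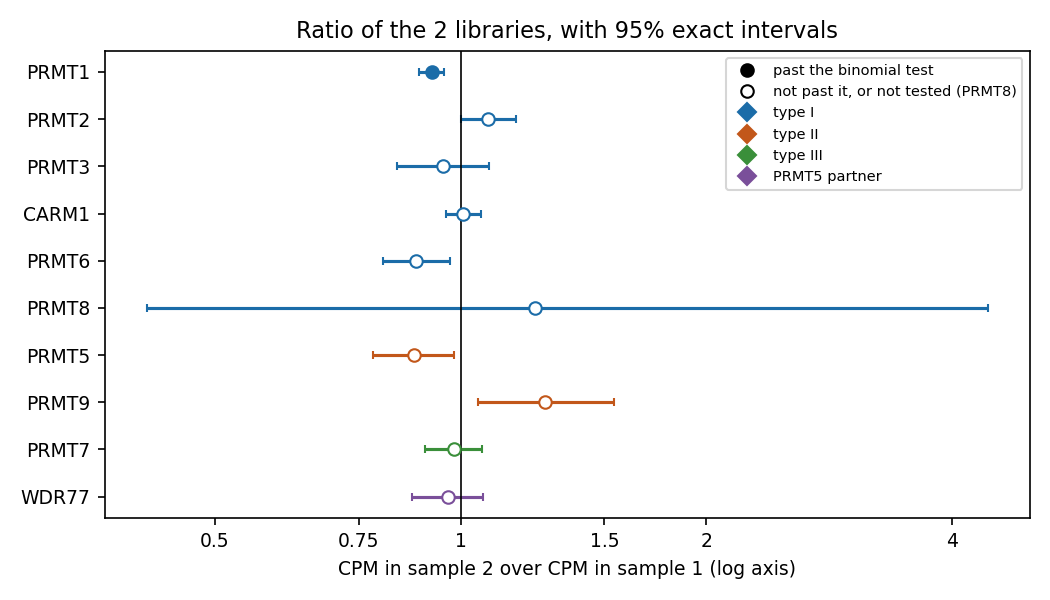
CPM in sample 2 over CPM in sample 1 for each gene on a log axis, with 95% exact intervals. Only PRMT1, the filled point at 0.922, passed the binomial test over all genes, and PRMT8, with an interval of 0.413 to 4.42, was not tested.

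The genes around the enzymes were read in 8 lists holding 72 genes, of which 64 reached a mean of 1 CPM. In all 17 of the 64 passed the binomial test between the libraries (26.6%, beside 8.97% of all genes tested). Of these, 2 were higher and 15 lower in sample 2. All of the 17 but ADK average over 100 CPM, where 26.5% of all genes passed. Many of the 64 average less, and of those only ADK passed. The share passing among the list genes over 100 CPM was therefore above 26.6%. So 26.5% is no matched background for the 64 together, and the part of abundance in these calls was not tested. None of the 64 passed by edgeR's exact test with the common dispersion, where 2 of 64 had an unadjusted p under 0.05, beside 5.67% of all genes. Among the proteins that type I enzymes methylate, 10 of 20 passed the binomial test, 2 higher and 8 lower in sample 2, with a median log2 difference of -0.04. The list is of abundant genes, with medians of 361 and 342 CPM in the samples, so the 26.5% of genes at 100 CPM or more is the nearer background. TAF15, an RGG-motif RNA-binding protein, had 346 CPM in sample 1 against 303 CPM in sample 2. EWSR1, another RGG-motif protein, had 389 and 361 CPM. The nucleolar proteins of FBL and NCL were lower in sample 2 as well, FBL with 370.1 and 338 CPM and NCL with 1459 and 1400 CPM. So were HNRNPA2B1 (1413 and 1303 CPM) and G3BP1 (182 and 163 CPM). RPS2, the substrate of PRMT3, had 5039 and 5139 CPM and PABPC1, a poly(A)-binding protein that CARM1 methylates, had 709.7 and 765 CPM, and these 2 were higher in sample 2. RPS2, PABPC1 and HSPA8 have near-identical processed copies in the genome, so their counts are uncertain.

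Substrates of PRMT5, PRMT7 and PRMT9 had 2 of 10 past the test, both lower in sample 2, with a median log2 difference of -0.09. The list's median was 220.04 CPM in sample 1 against 205 CPM in sample 2. Of all genes at 100 CPM or more 26.5% passed, but some of the list average less, so the shares are not matched. HSPA8, a constitutive HSP70 chaperone that PRMT7 methylates, had 910.3 CPM in sample 1 against 732 CPM in sample 2. EIF2S1, the alpha subunit of initiation factor eIF2, had 186 and 163 CPM. SF3B2, the splicing factor that PRMT9 methylates, had 323 and 326 CPM and did not pass the test. The enzymes that supply and recycle S-adenosylmethionine had 5 of 11 past it, all lower in sample 2, with a median log2 difference of -0.11, and 3 of the 14 listed were under 1 CPM. All genes tested passed at 8.97%, and 4 of the 5 (MAT2A, AHCY, AMD1 and SRM) average over 100 CPM, where 26.5% passed. The list also holds genes under 100 CPM, so neither share is matched to it. MAT2A, which makes S-adenosylmethionine, had 238 CPM in sample 1 against 220.4 CPM in sample 2. AHCY, which removes the inhibitory product S-adenosylhomocysteine, had 289 and 269 CPM, and ADK, which clears the adenosine formed, had 53.2 and 45.5 CPM. AMD1 and SRM, which lead from S-adenosylmethionine to spermidine, had 236 and 214 CPM and 400.5 and 367 CPM.

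The other 5 lists had no gene past the binomial test. The PRMT5 adaptors CLNS1A and RIOK1 had 60.8 and 61.1 CPM in sample 1 against 62.3 and 54.5 CPM in sample 2, and COPRS had 29.5 against 26.5 CPM. Among 7 other partners and coactivators of the enzymes, the acetyltransferases EP300 (205 and 204 CPM) and CREBBP (197 and 186 CPM) had the highest CPM. Of 3 further proteins reported to methylate arginine, FBXO11 had 33.3 and 35.0 CPM and METTL23 20.4 and 19.95 CPM. Per length METTL23 was at 17.2 CPM per kb and FBXO11 at 8.89, so both lay above PRMT9. Of 8 enzymes that act on arginine or on methylarginine, 4 were under 1 CPM, all of them peptidylarginine deiminases. DDAH1, which hydrolyses free asymmetric dimethylarginine, had 66.98 and 71.5 CPM, and JMJD6, an oxygenase, had 44.6 and 43.5 CPM. Of 7 Tudor-domain readers of methylarginine, 6 were tested. SND1 had 295 and 298 CPM, and SMNDC1, a splicing factor, had 65.8 and 58.8 CPM.

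**Figure D5:**
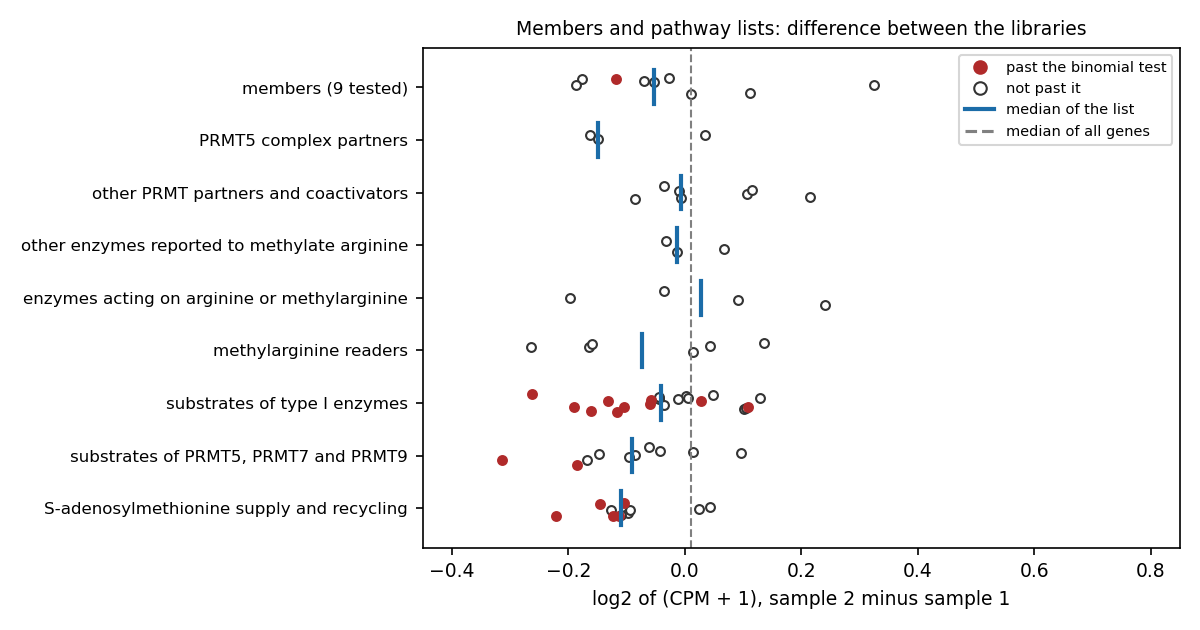
Difference between the libraries in log2(CPM + 1), sample 2 minus sample 1, for the 9 members tested and the tested genes of 8 lists. Filled points passed the binomial test over all genes, blue bars are list medians and the dashed line is the median of all genes (0.01); filled points are in 3 lists and in the members' row, where the filled point is PRMT1.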

How the data were processed

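RNA was extracted from FKBP5 knockdown HEK293T cells with TRIzol and made into directional libraries, per the labels' protocols. The authors deposited whole-number counts, 1 per Ensembl gene and sample. The deposited CPM equal those counts times 1 constant per library: 100% of values gave whole reads within 0.001 reads. The binomial test on those reads therefore had to make the same 1393 calls. That constant implies a library size larger than the summed counts, by 3.78% (sample 1) and 2.68% (sample 2). STAR 2.7.7a, edgeR and GRCh38 are named in the submitters' processing notes. Which program and annotation made the counts is not stated there. Symbols came from a gene name table (99.5% of IDs matched). GENCODE 29 (96.4% of IDs) gave coordinates, principal transcripts (by APPRIS tag) and overlaps. RefSeq gave start regions.

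The members and lists were chosen with earlier results of these data known. Means and SD are over both samples. Named genes are the members, FKBP5, neighbours, and of each list the 2 genes with the highest CPM and those past the test, of which 2 are not reported here by name. The edgeR quasi-likelihood test was not used, since there is 1 group. The binomial test was checked on simulated counts that held counting error alone, so the check does not cover any further spread between libraries. Exact intervals are at 95%. Proteins for identity were translated from the principal transcripts and aligned with Biopython 1.88 (BLOSUM62). The alternatives were other scalings, filters, lengths, a pseudocount of 0.5 and single samples. Tools were R 4.3.3, edgeR 4.0.16, DESeq2 1.42.0, Python 3.11.15, scipy 1.17.1 and pandas 2.3.3.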

Additional observations from a re-analysis of the deposited data

How the results depend on the processing

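With the column totals as scaling, 2 members passed the binomial test in place of 1: PRMT6 was added at an adjusted p of 0.0467, in a range of 0.0467 to 0.996 over its alternatives. PRMT1 passed in 7 of 8 alternatives, with adjusted p from 3.36e-05 to 1. By edgeR's exact test with the common dispersion 13 genes passed in all, 0 members (0 of 9 also at an unadjusted p under 0.05) and 0 list genes (2 of 64 unadjusted, beside 5.67% of all genes). Its spread comes from the pair of libraries it compares. CARM1, at a log2 difference of 0.01, turned to -0.0038 with column totals and -0.0011 with DESeq2 size factors. The remaining 70 of 74 member values kept direction and side of the threshold. Those under the pseudocount and the recovered reads could not do otherwise.

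Length moved the shares. Type I held 87.1% on merged exons, 90.5% on coding length and 89.9% with exons of other genes on either strand left out. Type II held 8.30%, 3.87% and 5.96%, and type III held 4.64% and 5.61% for the first 2. The PRMT5 to WDR77 ratio was 0.613 on merged exons, 0.407 on coding length and 0.570 without same-strand overlap. Lengths without overlaps, and the reads recovered from CPM, were chosen after seeing the data. Using either sample alone gave ratios of 0.735 and 0.808, type I shares of 91.2% and 91.4%, and 7 and 8 of 9 neighbours differing. The 2 samples may be technical replicates, and depth limits PRMT8. No paired analysis was possible because there is only 1 group.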
